A study of Mus musculus with 6 samples.

Results

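Layer genes of cortical projection neurons were measured in the mouse forebrain after 1 h of water avoidance stress (WAS). They are 9 genes chosen by symbol, Cux1, Cux2, Rasgrf2, Rorb, Bcl11b, Fezf2, Tbr1, Foxp2 and Neurod6, and all 9 were found among the 23282 entries of the deposited count tables and passed the filter on low counts. The libraries came from male C57BL/6J mice of 8 to 10 weeks. The 3 mice labelled WAS stood for 1 h on a platform surrounded by water, and the 3 mice labelled control stood for 1 h on the same platform in a container without water. All were killed directly afterwards, and RNA from 1 hemisphere of the forebrain, taken without olfactory bulb and cerebellum, was sequenced by QuantSeq 3′ mRNA-Seq, which reads the polyadenylated ends of transcripts. Total counts lay between 9248520 and 10502029 per library. Headings of the count columns began with WC for mice labelled WAS and with WS for mice labelled control, and the sources used here do not define them. Groups follow the sample labels, so that WAS libraries and control libraries below mean those labelled so, and exchanging the labels would reverse all directions given here.

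Glutamatergic projection neurons of the neocortex are stacked in layers that differ in their targets and in the transcription factors they express. Upper layer neurons connect cortical areas with each other, layer 4 receives thalamic input, layer 5 holds neurons projecting to the striatum, brainstem and spinal cord, and layer 6 projects to the thalamus. Several layer genes are also expressed outside the cortex: Bcl11b and Foxp2 in striatal projection neurons, Foxp2 and Rorb in the thalamus, and Neurod6 in hippocampal pyramidal neurons. A count from a whole forebrain hemisphere therefore adds up the cortex and these regions. In such bulk RNA, fewer cells of a type and less RNA per cell cannot be told apart.

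With all 6 libraries, none of the 9 layer genes met the study's fold change of 1.5 with an unadjusted p under 0.05, criteria that 2.49% of the 15239 genes tested met in either direction and 0.676% with a lower level. Of the 9 genes, 8 had a log2 fold change below 0, that is a lower level in WAS than in control libraries, against 49.8% of all genes tested. Their median was -0.21, against 0.00088 for all genes tested. The 3 WAS libraries were unlike each other: for Bcl11b, Tbr1, Foxp2, Fezf2 and Neurod6, WAS replicate 2 lay at the opposite end from WAS replicate 1. Without WAS replicate 2, Bcl11b and Tbr1 met the criteria with a lower level and the median of the 9 genes was -0.28. In that setting, 5.45% of all genes tested met the criteria in either direction and 2.45% with a lower level. Levels below are counts per 1000000 counts of the library (CPM), with the SD over 3 libraries. Fold changes, with their standard error (SE), are from edgeR's quasi-likelihood test with TMM scaling, with p-values adjusted by Benjamini and Hochberg over all genes tested.

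Cux1 and Cux2 encode cut homeodomain transcription factors of upper layer neurons, where they shape dendrites and spines. Cux1 (chr5:136248135-136567490, minus strand, GRCm38) was at 76.4, 105.6 and 87.8 CPM in WAS replicates 1, 2 and 3 and at 109.4, 112.7 and 92.4 CPM in control replicates 1, 2 and 3. WAS replicate 1 was the lowest, and WAS replicate 2 lay among the control libraries, so that the groups overlapped. The means were 89.96 ± 14.7 CPM (SD, n = 3) in the WAS libraries and 104.8 ± 10.9 CPM (SD, n = 3) in the control libraries, a log2 fold change of -0.26 (± 0.12 SE, adjusted p = 0.702). Leaving out WAS replicate 1 gave -0.16, and leaving out WAS replicate 2 gave -0.39. GENCODE M21 lists 7 distinct ends for the protein-coding transcripts of Cux1, and the counts do not tell which of them was read.

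Cux2 (chr5:121856366-122050102, minus strand) was the member with the fewest reads, between 187 and 267 per library, which gives a counting error of at most 7.31%. It was at 20.2, 21.2 and 18.7 CPM in WAS replicates 1, 2 and 3 and at 23.2, 25.7 and 21.8 CPM in the control replicates. All WAS libraries were below all control libraries, though WAS replicate 2 and control replicate 3 differed by less than the counting error. Cux2 was the only layer gene whose groups did not overlap, a property of 12.2% of all genes tested. Its log2 fold change was -0.27 (± 0.13 SE, adjusted p = 0.695).

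Rasgrf2 encodes a calcium-regulated exchange factor for Ras and is a marker of layer 2 and 3 neurons. It was at 235, 216 and 218 CPM in WAS replicates 1, 2 and 3 and at 244, 227 and 219 CPM in the control replicates. These were the steadiest values of the 9 genes, the highest library exceeding the lowest by a factor of 1.13. The groups overlapped, with a log2 fold change of -0.083 (± 0.08 SE, adjusted p = 0.894) that ran from -0.12 to -0.048 with each library left out. The gene lies at chr13:91880400-92131656 on the minus strand.

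Rorb, at chr19:18930605-19111196 on the minus strand, encodes an orphan nuclear receptor that marks layer 4 neurons of the sensory cortex. It was at 204, 229 and 193 CPM in WAS replicates 1, 2 and 3 and at 250.3, 254 and 201 CPM in the control replicates. Control replicate 3 lay among the WAS libraries. The log2 fold change of Rorb was -0.21 (± 0.10 SE, adjusted p = 0.719).

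**Figure D1:**
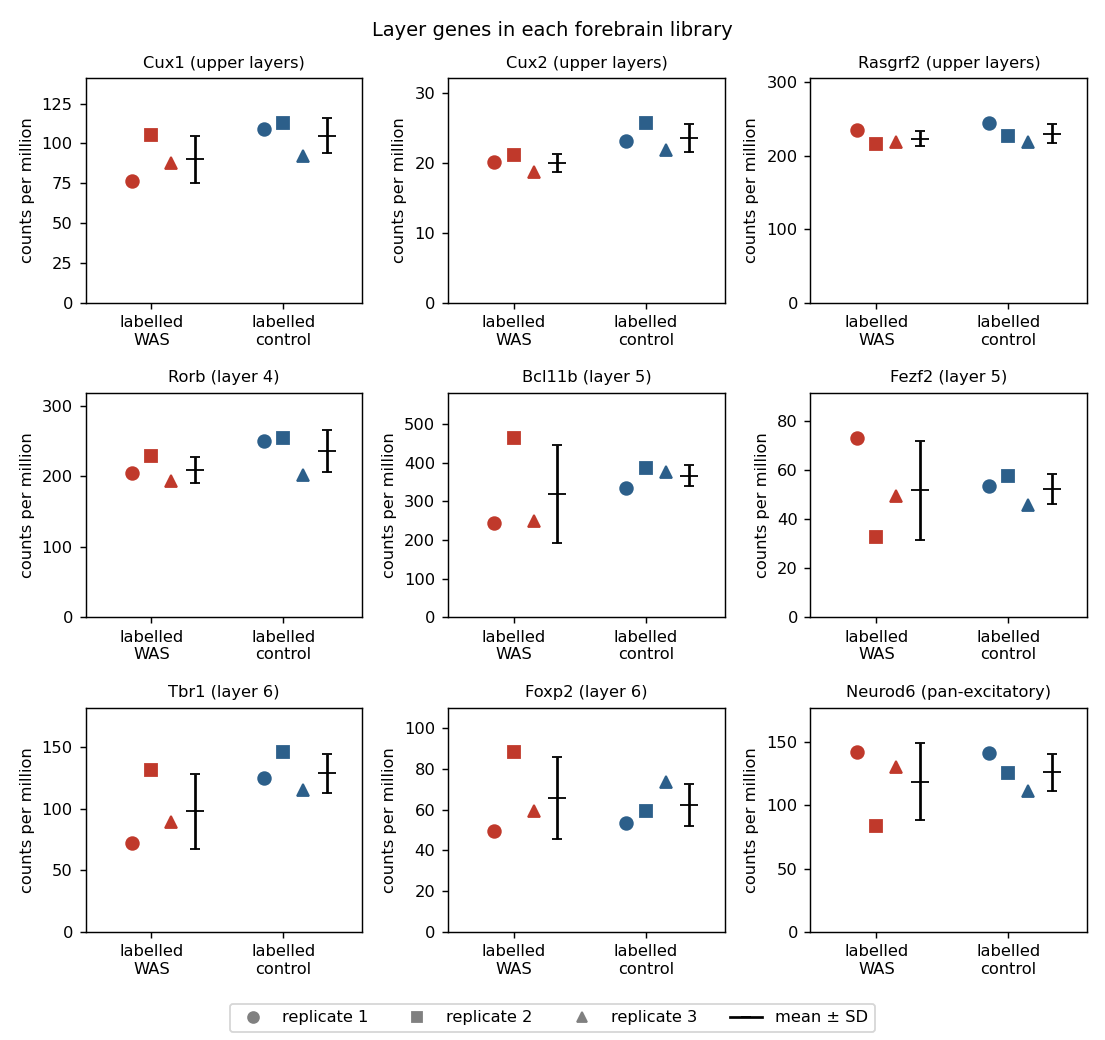
Levels of the 9 layer genes in CPM (vertical axes, each starting at 0) by labelled group; each symbol is 1 library, its shape gives the replicate number, and the black bar is the mean ± SD of 3 libraries. Cux2 is the only panel in which the groups do not overlap, and WAS replicate 2 (red square) stands away from the other WAS libraries for Bcl11b, Tbr1, Foxp2 and Neurod6.

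Bcl11b, also known as Ctip2, encodes a zinc finger factor required for corticospinal axons and for the maturation of striatal projection neurons. Bcl11b (chr12:107910403-108003602, minus strand) was at 243, 464 and 249 CPM in WAS replicates 1, 2 and 3 and at 335, 385 and 377 CPM in the control replicates. The WAS libraries held both the lowest 2 values and the highest value, with the control libraries in between. The means were 319 ± 126 CPM (SD, n = 3) in the WAS libraries and 365 ± 27.0 CPM (SD, n = 3) in the control libraries. The log2 fold change was -0.24 (± 0.21 SE, adjusted p = 0.886). Without WAS replicate 2 it was -0.61, and Bcl11b then met the study's criteria, together with 5.45% of all genes tested in either direction and 2.45% with a lower level. Without WAS replicate 1 or 3 it was nearer to 0, at -0.076 and -0.088.

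Fezf2 encodes the zinc finger factor that specifies subcerebral projection neurons and acts upstream of Bcl11b in them. It is a short gene at chr14:12342094-12348189 on the minus strand. Its levels were 73.0, 32.8 and 49.3 CPM in WAS replicates 1, 2 and 3 and 53.5, 57.4 and 45.5 CPM in the control replicates. Here WAS replicate 1 was the highest and WAS replicate 2 the lowest library of all, the reverse of Bcl11b. The group means of Fezf2 were nearly equal, at 51.7 ± 20.2 CPM (SD, n = 3) in the WAS libraries and 52.1 ± 6.07 CPM (SD, n = 3) in the control libraries. The log2 fold change of -0.048 (± 0.22 SE, adjusted p = 0.979) became 0.19 without WAS replicate 2, and it also changed sign without control replicate 2 (0.029).

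The count ratio of these layer 5 genes does not depend on the scaling of a library. The ratio of Bcl11b to Fezf2 counts was 3.33, 14.2 and 5.06 for WAS replicates 1, 2 and 3 and 6.25, 6.71 and 8.28 for control replicates 1, 2 and 3. The WAS libraries thus lay on both sides of the control libraries.

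Tbr1, at chr2:61802930-61814114 on the plus strand, encodes a T-box factor that directs layer 6 corticothalamic identity and represses Fezf2 and Bcl11b in those cells. It was at 72.5, 131.8 and 89.4 CPM in WAS replicates 1, 2 and 3 and at 125, 146 and 115 CPM in the control replicates. WAS replicates 1 and 3 were below every control library, while WAS replicate 2 was above 2 of them. The means of 97.9 ± 30.5 CPM (SD, n = 3) in the WAS libraries and 129 ± 15.6 CPM (SD, n = 3) in the control libraries gave the furthest log2 fold change from 0 among the 9 genes, -0.43 (± 0.18 SE, unadjusted p = 0.0356, adjusted p = 0.661 by edgeR). Tbr1 was the only member with an unadjusted p under 0.05, a threshold passed by 7.24% of all genes tested and, with a lower level, by 3.4%. It did not pass on library totals, with limma, or when WAS replicate 1, WAS replicate 3, control replicate 1 or control replicate 2 was left out. Its log2 fold change was -0.70 without WAS replicate 2, where it met the study's criteria, and -0.26 without WAS replicate 1.

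Foxp2 encodes a forkhead factor of layer 6 neurons that is known for its role in vocal learning and is also present in striatum and thalamus. Foxp2 (chr6:14901349-15441977, plus strand) was at 49.6, 88.0 and 59.1 CPM in WAS replicates 1, 2 and 3 and at 53.3, 59.3 and 73.6 CPM in the control replicates. WAS replicate 2 was the highest and WAS replicate 1 the lowest of the 6 libraries, as for Bcl11b. With a log2 fold change of 0.039 (± 0.19 SE, adjusted p = 0.981), Foxp2 was the only layer gene above 0, and this turned to -0.23 without WAS replicate 2 and to -0.068 without control replicate 1. The ratio of Foxp2 to Tbr1 counts, both from layer 6, was 0.684, 0.668 and 0.661 for WAS replicates 1, 2 and 3 and 0.426, 0.407 and 0.639 for control replicates 1, 2 and 3. This ratio, calculated after the values were seen, was higher in every WAS library, although control replicate 3 came close. Several ratios of layer genes were calculated, and it was the only one whose groups did not overlap. The share of all gene pairs with this property was not calculated.

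Neurod6 encodes a basic helix-loop-helix factor found in most glutamatergic neurons of the cortex and hippocampus. It lies at chr6:55677822-55681263 on the minus strand and has 1 protein-coding transcript in GENCODE M21. Neurod6 was at 142, 84.1 and 130.2 CPM in WAS replicates 1, 2 and 3 and at 141, 126 and 112 CPM in the control replicates. WAS replicate 2 was the lowest library by far, and the other WAS libraries lay near the 2 highest controls. The means were 119 ± 30.6 CPM (SD, n = 3) in the WAS libraries and 126 ± 14.8 CPM (SD, n = 3) in the control libraries, a log2 fold change of -0.12 (± 0.16 SE, adjusted p = 0.938), which was 0.073 without WAS replicate 2. Ranked by level, the 6 libraries stood in exactly the reverse order for Neurod6 and Foxp2, though WAS replicate 1 and control replicate 1 were nearly equal for Neurod6 and WAS replicate 3 and control replicate 2 for Foxp2, at differences below the counting error.

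**Figure D2:**
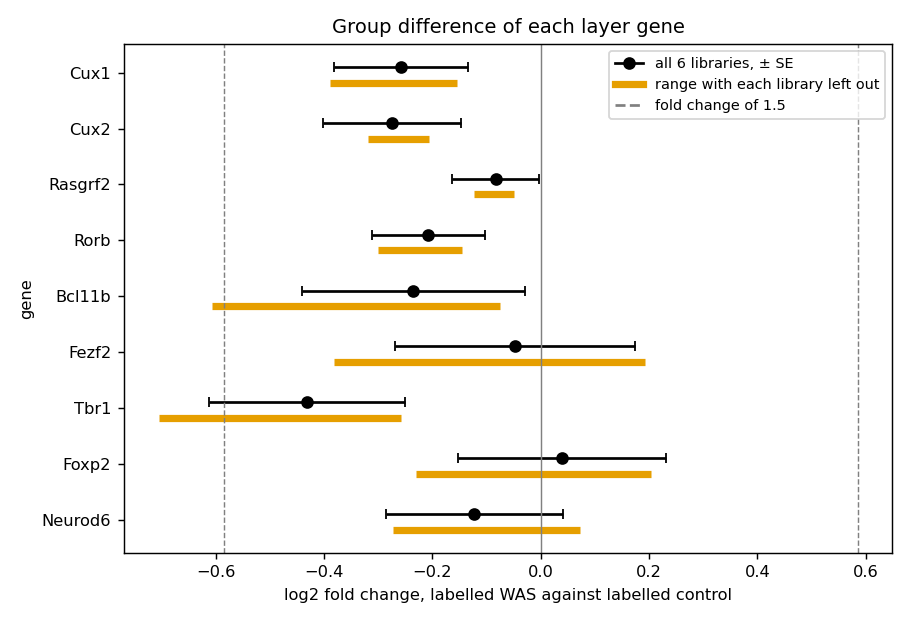
Log2 fold change of each layer gene in WAS relative to control libraries (horizontal axis); black points are the estimates from all 6 libraries with their standard error, orange bars the range when each library is left out, and dashed lines a fold change of 1.5. Only the orange bars of Bcl11b and Tbr1 reach past a fold change of 1.5, and those of Fezf2, Foxp2 and Neurod6 cross 0.

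Among the WAS libraries, the deep layer genes and Neurod6 varied more than the genes of upper layers and layer 4. Between the highest and the lowest WAS library, the ratio was 1.91 for Bcl11b, 2.23 for Fezf2, 1.82 for Tbr1, 1.78 for Foxp2 and 1.69 for Neurod6, whereas the median over the 9400 genes of at least 10 CPM was 1.20. These 5 ratios exceeded those of 96.8%, 98.2%, 95.9%, 95.3% and 93.6% of the 9400 genes. For Rasgrf2, Cux2, Rorb and Cux1 the ratio was 1.09, 1.13, 1.19 and 1.38. Among the control libraries, the ratios of the 9 genes ran from 1.11 for Rasgrf2 to 1.38 for Foxp2, with a median of 1.16 over the 9400 genes. The ratio was larger in the WAS libraries for 6 of the 9 layer genes and for 60.0% of the 9400 genes.

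Over the 6 libraries, the layer genes followed a few patterns. Cux1 and Tbr1 were lowest in WAS replicate 1 and highest in control replicate 2. Cux2 and Rorb shared the highest library, control replicate 2, and the lowest, WAS replicate 3. Bcl11b and Foxp2 were lowest in WAS replicate 1 and highest in WAS replicate 2, while Fezf2 and Neurod6 showed the reverse. On the scale of log2(CPM + 1) relative to the mean of 6 libraries, Fezf2 stood at 0.52 in WAS replicate 1 and at -0.61 in WAS replicate 2, and Bcl11b at -0.45 and 0.48. Genes assigned to one layer did not share one order of the libraries.

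**Figure D3:**
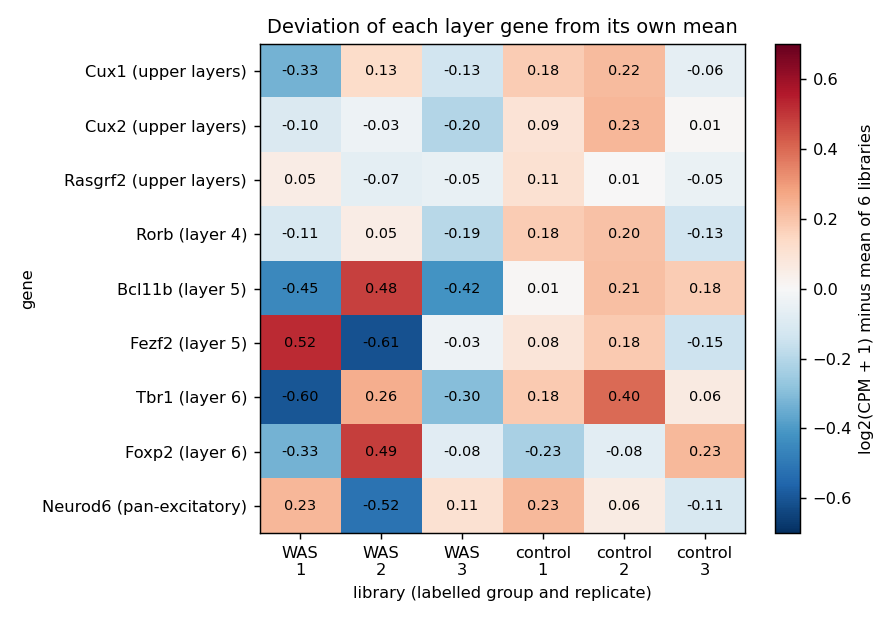
Each cell gives log2(CPM + 1) of a layer gene (rows, with its role) in a library (columns) minus the mean of that gene over the 6 libraries; red is above and blue below the mean. The columns of WAS replicates 1 and 2 have opposite signs for all layer genes but Cux2, with Bcl11b at -0.45 and 0.48.

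To show promoters of members with different patterns, the 250 bases before the RefSeq transcription start (GRCm38.p6) are given for Rorb, Rasgrf2 and Neurod6, whose windows hold no exon annotated in GENCODE M21. Promoters were found for 8 of the 9 genes, as 10 windows, and Foxp2 had no entry. Capitals mark the E-box CANNTG, the site of basic helix-loop-helix factors such as Neurod6.
Rorb, chr19:19111197-19111446, minus strand: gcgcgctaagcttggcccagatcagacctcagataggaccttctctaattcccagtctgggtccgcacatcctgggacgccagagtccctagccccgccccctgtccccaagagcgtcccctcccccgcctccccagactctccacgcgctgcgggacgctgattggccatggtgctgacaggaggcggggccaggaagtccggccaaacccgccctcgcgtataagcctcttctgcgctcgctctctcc
Rasgrf2, chr13:92131829-92132078, minus strand: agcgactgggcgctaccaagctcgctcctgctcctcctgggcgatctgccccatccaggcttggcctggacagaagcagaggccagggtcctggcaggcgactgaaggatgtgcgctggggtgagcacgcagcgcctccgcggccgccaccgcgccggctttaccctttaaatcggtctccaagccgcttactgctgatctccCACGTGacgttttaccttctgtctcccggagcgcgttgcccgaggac
Neurod6, chr6:55681264-55681513, minus strand: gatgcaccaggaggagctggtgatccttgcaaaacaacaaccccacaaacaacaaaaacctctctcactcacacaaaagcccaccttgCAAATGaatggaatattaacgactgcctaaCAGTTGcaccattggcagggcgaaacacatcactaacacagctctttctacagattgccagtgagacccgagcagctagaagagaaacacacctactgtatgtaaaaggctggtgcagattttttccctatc
The Neurod6 window holds an E-box at -162 and another at -132 from the start, the Rasgrf2 window holds 1 at -47, and the Rorb window shown holds none. A second Rorb window, at chr19:19001118-19001367 and also without an annotated exon, holds E-boxes at -180 and -76. Searched on both strands, the E-box was in 6 of the 10 windows, from 5 genes, and in 66.2% of 32851 RefSeq promoter windows of the same length. The FOX core TGTTTAC was in the window of Cux1 alone, and in 3.17% of all windows. The Cut site ATCGAT, next to an E-box without overlapping it, was found in 1 of the windows of Cux2 and in 0.728% of all windows. GGTGTGA, the core of a T-box site, and AGGTCA, the core of a ROR site, held by 3.33% and 14% of all windows, were in none of the 10. Matches of letters describe these windows only.

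Markers of other brain regions differed widely between the libraries, and some layer genes moved with them. The summed level of 15 striatal neuron markers was 346, 2648 and 615 CPM in WAS replicates 1, 2 and 3 and 1302, 1619 and 1837 CPM in the control replicates. Of these 15 markers, 13 were tested, 11 of them with a log2 fold change below 0, with a median of -0.50. Ebf1 went the other way, at 22.7, 23.6 and 21.2 CPM in WAS replicates 1, 2 and 3 (log2 fold change 0.43). It was at 16.6, 16.8 and 15.4 CPM in the control replicates, and 8.42% of all genes tested were likewise higher in every WAS library. With all 6 libraries, 0 met the criteria in the main fit, but Ppp1r1b (-1.36) and Penk (-1.26) did with the replicate number as a block. Without WAS replicate 2, Ppp1r1b (-2.23) and Penk (-2.11) met them, whereas without WAS replicate 1 their log2 fold changes were -0.035 and 0.092. Drd2, a defining striatal marker, was near 0, with 1 count in 1 library, and Gpr6 was at 0 in all libraries, although Ppp1r1b reached 602 CPM and Penk 423 CPM in WAS replicate 2. Bcl11b and Foxp2 were lowest where the striatal sum was lowest, in WAS replicate 1, and highest where it was highest, in WAS replicate 2. Fezf2 and Neurod6 were highest and lowest in the opposite libraries. The part of striatal tissue in the levels of Bcl11b and Foxp2 was not tested.

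The 10 thalamic neuron markers summed to 569, 178 and 492 CPM in WAS replicates 1, 2 and 3 and to 166, 127 and 165 CPM in the control replicates. The log2 fold change was above 0 for all 10 (median 1.16), and 6 met the study's criteria, which 1.82% of all genes tested did with a higher level. Tcf7l2, the transcription factor of thalamic neurons, was at 234, 42.0 and 173 CPM against 36.6, 20.6 and 38.4 CPM (log2 fold change 2.20, SE 0.47, adjusted p = 0.477 by edgeR). The 9 hippocampal neuron markers summed to 243, 128 and 209 CPM against 153, 89.1 and 117 CPM, with a median log2 fold change of 0.77 and 2 genes meeting the criteria. WAS replicates 1 and 3 were therefore the libraries with the highest thalamic and hippocampal and the lowest striatal sums, and also those with the lowest Tbr1, Cux1 and Bcl11b. In those libraries, Rorb was at 204 and 193 CPM and Foxp2 at 49.6 and 59.1 CPM, and thalamic neurons express both besides other regions. The part of regional tissue content in the levels of Tbr1, Cux1, Rorb and Foxp2 was not tested.

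**Figure D4:**
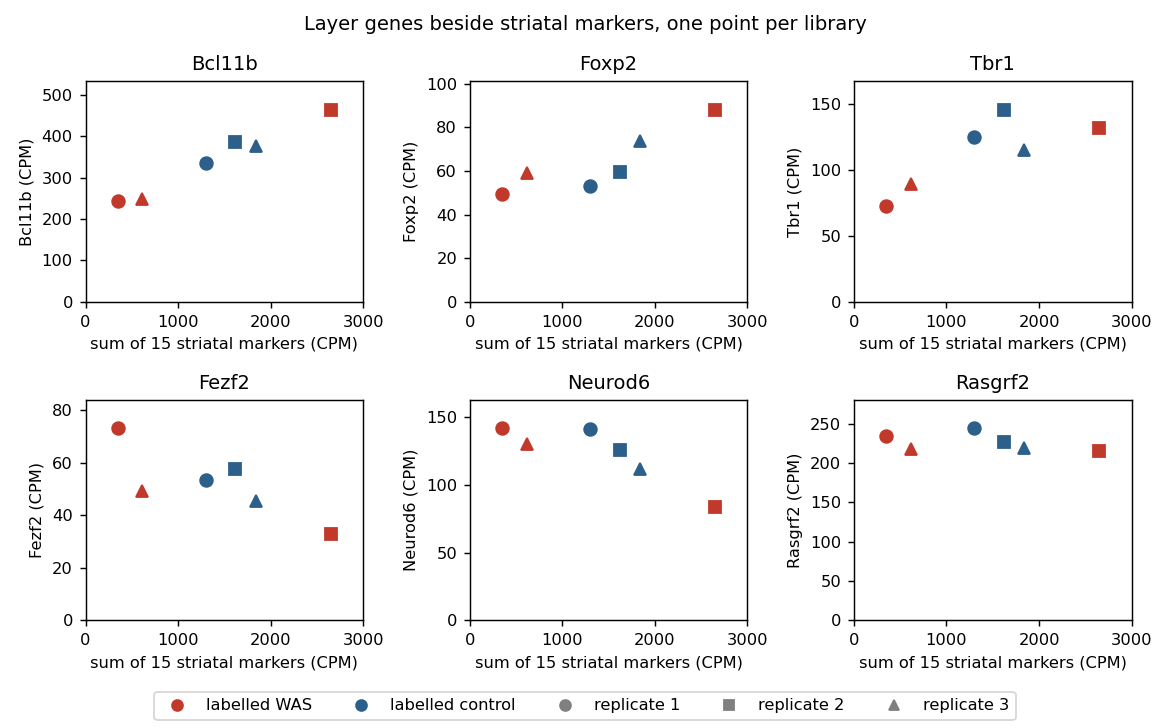
Level of 6 layer genes (vertical axes, CPM from 0) against the summed level of 15 striatal markers (horizontal axis, CPM), 1 point per library, with colour for the labelled group and shape for the replicate. The striatal sum runs from 346 CPM in WAS replicate 1 to 2648 CPM in WAS replicate 2, and between these libraries Bcl11b goes from 243 to 464 CPM and Neurod6 from 142 to 84.1 CPM, while Rasgrf2 stays between 216 and 244 CPM.

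GABAergic interneuron markers summed to 1091 ± 152 CPM (SD, n = 3) in the WAS libraries and 1093 ± 12.4 CPM (SD, n = 3) in the control libraries. Between the lowest and the highest library, oligodendrocyte markers ran from 5185 to 7188 CPM, astrocyte markers from 4231 to 4361 CPM, microglia markers from 278 to 338 CPM and endothelial markers from 145 to 166 CPM. Choroid plexus markers were at 53.2 and 17.0 CPM in WAS replicate 1 and control replicate 2 and between 931 and 1247 CPM elsewhere. Fezf2 was highest in WAS replicate 1 and control replicate 2, the libraries nearly without choroid plexus markers, and the part of choroid plexus content in its level was not tested. Hypothalamic markers were at 15.4, 25.2 and 10.6 CPM in WAS replicates 1, 2 and 3 and at 4.28, 3.18 and 53.5 CPM in the control replicates. Oxt made up 44.6 CPM of the sum in control replicate 3. Markers of the removed tissues were low, at 21.4 to 42.8 CPM for the cerebellum, with Gabra6 at 1 count over all libraries, and 4.91 to 9.12 CPM for the olfactory bulb. Of 4 cerebellar markers tested, 3 met the criteria with a higher level in the WAS libraries (median log2 fold change of the 4 genes 1.77), and the cerebellar sum was highest in WAS replicates 1 and 3, like the thalamic sum.

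Of 33 further cortical projection neuron genes in 5 lists, all were tested, 19 had a log2 fold change below 0 and 14 above, with a median of -0.13. An unadjusted p under 0.05 was reached by 9 genes with a lower and 4 with a higher level in the WAS libraries, thresholds passed by 3.4% and 3.85% of all genes tested. For 7 of the 33, every WAS library was below every control library, against 3.76% of all genes tested, and for 0 the reverse held, against 8.42%. The adjusted p was under 0.05 for 0 of the 33 by edgeR.

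Mdga1, a cell adhesion gene of upper layers, met the criteria with a higher level (log2 fold change 0.72, SE 0.26), and no longer met them when any of 4 libraries (WAS replicates 1 and 3, control replicates 1 and 2) was left out or with limma. Pou3f3 and Lhx2, transcription factors with the highest mean CPM of the upper layer list (not per length), had log2 fold changes of -0.083 and 0.084, and that of Lhx2 turned to -0.029 without WAS replicate 3.

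In layer 4, Whrn was at a log2 fold change of 0.22, which became 0.095 without WAS replicate 3, or 0.36 when WAS replicate 2 was left out. Rspo1, a secreted Wnt agonist, was at -0.57 (± 0.16 SE) and met the criteria when WAS replicate 2 or control replicate 3 was left out. Rspo1 was at 11.6, 12.3 and 11.3 CPM in WAS replicates 1, 2 and 3 and at 18.4, 18.9 and 13.8 CPM in the control replicates, without overlap of the groups. In layer 5, Pcp4, a calmodulin regulator also abundant in striatum, followed Bcl11b, at 308, 703 and 354 CPM against 527, 646 and 601 CPM (log2 fold change -0.41). The log2 fold change became -0.20 without WAS replicate 1, and -0.87 when WAS replicate 2 was left out, the setting in which Pcp4 met the criteria. The end of the Pcp4 transcript overlaps Igsf5, so its counts are uncertain. Crym, which encodes a thyroid hormone binding protein, was at a log2 fold change of 0.36 (± 0.15 SE).

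Among layer 6 genes, Tle4, a corepressor of corticothalamic neurons, was at 80.6, 96.7 and 88.4 CPM in WAS replicates 1, 2 and 3 and at 101.8, 101.9 and 117 CPM in the control replicates. Its groups did not overlap and its log2 fold change was -0.31 (± 0.10 SE, adjusted p = 0.581). Nr4a2, an orphan nuclear receptor of layer 6b and the claustrum, went the other way at a log2 fold change of 0.65 and met the criteria. They were no longer met with limma or when WAS replicate 1 or 3 was left out, the libraries in which it was at 288 and 280.2 CPM against 145 CPM in WAS replicate 2.

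Of 6 genes shared by excitatory neurons of all layers, 3 had an unadjusted p under 0.05 with a lower level and 1 with a higher level. Mef2c, a transcription factor of synapse maturation, was at 1884, 2041 and 1651 CPM in WAS replicates 1, 2 and 3 and at 2549, 2545 and 2118 CPM in the control replicates, with a log2 fold change of -0.41 (± 0.10 SE, adjusted p = 0.477, and 0.00973 without WAS replicate 2). Camk2a, the calcium/calmodulin kinase of excitatory synapses, had a log2 fold change of -0.33 (± 0.08 SE) and groups that did not overlap, but its transcript end holds sequence repeated in transcripts of other genes, Foxp2 among them. Slc17a7, the vesicular glutamate transporter of cortical neurons, chosen here after its values were seen, was at 231, 260 and 229 CPM against 271, 298 and 305 CPM. Bhlhe22, a basic helix-loop-helix factor also named after its values were seen, had a log2 fold change of 0.44 and overlapping groups.

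Of 11 family relatives of the layer genes, 9 were tested, with a median log2 fold change of -0.050 and 0 meeting the criteria. Foxp1, the relative of Foxp2 that is abundant in striatum and cortical layers, was at 373, 725 and 357 CPM in WAS replicates 1, 2 and 3 and at 663, 717 and 613 CPM in the control replicates (log2 fold change -0.49, SE 0.22). Without WAS replicate 2 it was -0.90 and met the criteria, and without WAS replicate 1 or 3 it was -0.34 and -0.31. Rasgrf1, the relative of Rasgrf2, had a log2 fold change of 0.23 (± 0.11 SE), which became 0.10 without WAS replicate 1, or 0.34 when WAS replicate 2 was left out.

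Genes with a pattern like that of a layer gene were sought by Pearson's correlation of log2(CPM + 1) over the 6 libraries, in which all genes share the depth and the tissue content of each library, among 9399 other genes of at least 10 CPM. Kcnh1 and Chn1 were most like Tbr1 (0.997 and 0.993), Me3 and Cx3cl1 most like Cux1 (0.996 and 0.995), and Pik3r1 and Stmn1 most like Cux2 (0.994 and 0.988). Id2 and Ewsr1 came closest to Rorb (0.992 and 0.986), Camta2 to Rasgrf2 (0.991), and Carhsp1 and Pde1b to Bcl11b (0.992 and 0.991). For Fezf2 these were Bet1l and Trib1 (0.984 and 0.980), for Foxp2 Rabl6 and Cox20 (0.991 and 0.989), and for Neurod6 2900026A02Rik and Pias3 (0.995 and 0.984). Correlations of at least 0.95 were reached by 105 genes for Tbr1, 83 for Bcl11b and 70 for Cux1, but by 16 for Rasgrf2 and 17 for Neurod6. The counts of Stmn1, Ewsr1, Cox20 and Pias3 are uncertain, since their transcript ends share sequence or overlap with other genes.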

How the data were processed

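RNA-seq of forebrain hemispheres was analysed for 3 mice labelled WAS and 3 labelled control, each library from its own animal. QuantSeq reads (single-end, 75 bp) were aligned by the authors with Bowtie2 and counted with bedtools, unique and multiple alignments together, which gave the deposited read counts. The submitters' processing notes name the build mm10. The annotation and tool versions are not given in the sources used here. The authors' quantile normalization was not in these counts. Counts of transcript ends were not divided by length, so levels of different genes are not compared, and the most abundant genes of a list are those with the highest mean CPM, not per length.

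The 15239 entries with a mean log2(quantile-normalized count + 1) of at least 2 were tested with edgeR 4.0.16 in R 4.3.3, by TMM scaling (factors 0.976 to 1.01) and the quasi-likelihood test, without a replicate term. A gene met the study's criteria at 1.5-fold or more with p below 0.05 before adjustment. SE was |log2 fold change|/√F. Levels were scaled to the library total. Counting errors ignore amplification, since reads carry no molecular identifiers here. Positions are from GENCODE M21 (GRCm38). Overlap and shared stretches of 50 bases were searched in the last 500 bases of the longest transcript, and none was found in those ends of the 9 genes, although a Foxp2 transcript shares such a stretch with the end of Camk2a. Alternatives used DESeq2 1.42.0, limma 3.58.1, library totals, other filters, a replicate block and each library left out. The fit was tested on simulated data.

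The layer genes and lists were chosen with earlier results of these data known. Named were the 9 genes, the 2 most abundant and all genes meeting the criteria of the cortical and relative lists, and the 2 genes most like each member by correlation, of which 2 genes are not reported here. Lists that only check the tissue are given by sums and counts, with values for a few of their genes.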

Additional observations from a re-analysis of the deposited data

How the results depend on the processing

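Without WAS replicate 2, Bcl11b (-0.61) and Tbr1 (-0.70) met the study's criteria, with adjusted p of 0.00207 and 0.00401 by edgeR, as did 5.45% of all genes tested. With each library left out in turn, between 0 and 2 of the 9 layer genes and between 261 and 831 of all genes met the criteria, and between 0 and 484 genes had an adjusted p under 0.05. That count was 0 with all 6 libraries, where 1104 genes had an unadjusted p under 0.05. It was 22 with DESeq2 and 49 with the replicate block, and these included none of the 9 layer genes. The correlation of deviations between libraries with the same number was 0.066, 0.085 and 0.087, below the 0.1 set for pairing, although every library correlated best with its own number. The block gave 417 genes meeting the criteria, none of them a layer gene but including Ppp1r1b (-1.36) and Penk (-1.26), and adjusted p of 0.0444 for Mef2c and 0.00577 for Tcf7l2. Of the genes meeting the criteria, 72.9% were higher in the WAS libraries with TMM scaling, 80.8% with library totals and 53.3% on quantile-normalized log2 counts with limma. The log2 fold changes ran from -0.38 to 0.19 for Fezf2, -0.23 to 0.20 for Foxp2, -0.27 to 0.073 for Neurod6, -0.029 to 0.22 for Lhx2 and -2.11 to 0.092 for Penk with each library left out. The cause of these differences was not tested. No other layer gene changed sign under any alternative run. Over these alternatives the adjusted p of Tbr1 reached 0.9998. Depth limits Cux2 most, with a counting error of up to 7.31% in a library.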
